A study of Mus musculus with 22 samples.

Results

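The comparison described here is the interaction of KW6002 and cisplatin in mouse kidney, the difference between the effect of KW6002 in mice given cisplatin and its effect in mice not given cisplatin. All 22 of the 22 libraries entered it, since a difference of effects needs all 4 groups of the experiment. Each library was made from the kidney of 1 male C57Bl6/J mouse aged 8 to 10 weeks. Vehicle went to 5 mice, KW6002 to 6, cisplatin to 5, and both drugs to a co-treated group of 6 (cisplatin plus KW6002). Cisplatin, a platinum drug that damages DNA, was injected into the peritoneum daily for 6 days at 3 mg/kg. KW6002 (istradefylline), an antagonist of the adenosine receptor encoded by Adora2a, was given daily at 3 mg/kg from day -5 to day 7 to the KW6002 and co-treated groups. Kidneys of cisplatin-treated mice were collected 72 hours after the last cisplatin injection. All mice were adults of 1 sex and 1 inbred strain, so the values hold for that setting. The libraries held 26471762 to 40510754 counted reads, with group medians of 31739661 (vehicle), 30199812 (KW6002), 34311202 (cisplatin), and 31604187 (co-treated). Vehicle replicates 1 to 3 and KW6002 replicates 1 to 3 carry label numbers in the 300s, and the other 16 mice carry numbers in the 500s, so the cisplatin and co-treated groups hold numbers in the 500s only.

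The nephron filters plasma in the glomerulus and reclaims most of the filtrate in the proximal tubule, whose cells carry dense arrays of transporters for phosphate, glucose, amino acids, and organic ions. Organic cation transporters also bring cisplatin into these cells, and the injured tubule loses transporters and metabolic enzymes while it switches on secreted injury markers, matrix genes, and cell cycle genes. Adenosine receptors sense extracellular adenosine, which accumulates in injured or hypoxic tissue, and the receptor encoded by Adora2a raises cyclic AMP inside the cell.

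The labels were first compared with known responses of the kidney. Lcn2, which encodes the tubular injury marker NGAL, measured 3.24, 3.65, 4.91, 3.63, and 4.10 CPM (counts scaled by the normalized library size) in the vehicle mice and 2.94 to 9.35 CPM (median 5.24) in the KW6002 mice. It measured 1391, 1479, 1482, 1309, and 540 CPM in the cisplatin mice and 237 to 333 CPM (median 296) in the co-treated mice. The 4 groups therefore followed their cisplatin labels in every library, with the cisplatin mice highest, the co-treated mice apart below them, and the other 2 groups overlapping. Havcr1, which encodes the injury marker KIM1, stood at 1.63 to 2.98 CPM in the vehicle mice, 1.55 to 4.79 CPM in the KW6002 mice, 505 to 745 CPM in the cisplatin mice, and 61.8 to 320 CPM in the co-treated mice. Markers of proximal tubule, thick ascending limb, distal tubule, collecting duct, podocytes, and endothelium were detected in vehicle kidneys, as kidney tissue should show.

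For each of 17131 genes with enough counts, the interaction difference is the log2 fold change of co-treated over cisplatin mice minus the log2 fold change of KW6002 over vehicle mice. A value of 0 means that KW6002 had the same effect in both settings, a positive value that its effect was more positive with cisplatin, and a negative value that it was more negative with cisplatin. Tests came from 1 edgeR quasi-likelihood fit with Benjamini-Hochberg adjustment over all genes tested. Genes were called at an adjusted p below 0.01 with a difference beyond 1, and single genes and members of gene lists were read at an adjusted p below 0.05. The interaction was called for 1469 genes (8.58%), of which 727 were positive (4.24%) and 742 negative (4.33%). The even split depended on scaling, and with library size alone it was 641 positive and 882 negative at a median difference of -0.06 over all genes. At an adjusted p below 0.05 without a size limit, 3902 genes were positive (22.8%) and 3410 negative (19.9%). These shares are the background against which every list below is read.

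Nearly all of this difference lay in the effect measured with cisplatin. Between co-treated and cisplatin mice 1766 genes were called, and between KW6002 and vehicle mice edgeR called 0, with 3 genes at an adjusted p below 0.05 and 1930 at an unadjusted p below 0.05. For KW6002 against vehicle DESeq2 called 4 genes and limma voom called 0, and edgeR called 2 without vehicle replicate 3 and 1 without vehicle replicate 5. The median absolute log2 fold change over all genes was 0.30 for KW6002 with cisplatin and 0.09 for KW6002 without it, at median standard errors of 0.10 in both comparisons. Across the 17131 genes the 2 effects, which share no library, had a Pearson correlation of 0.015 and a Spearman correlation of -0.029, given as a description since genes are not independent. Their standard deviations across genes were 0.73 with cisplatin and 0.27 without it.

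**Figure D1:**
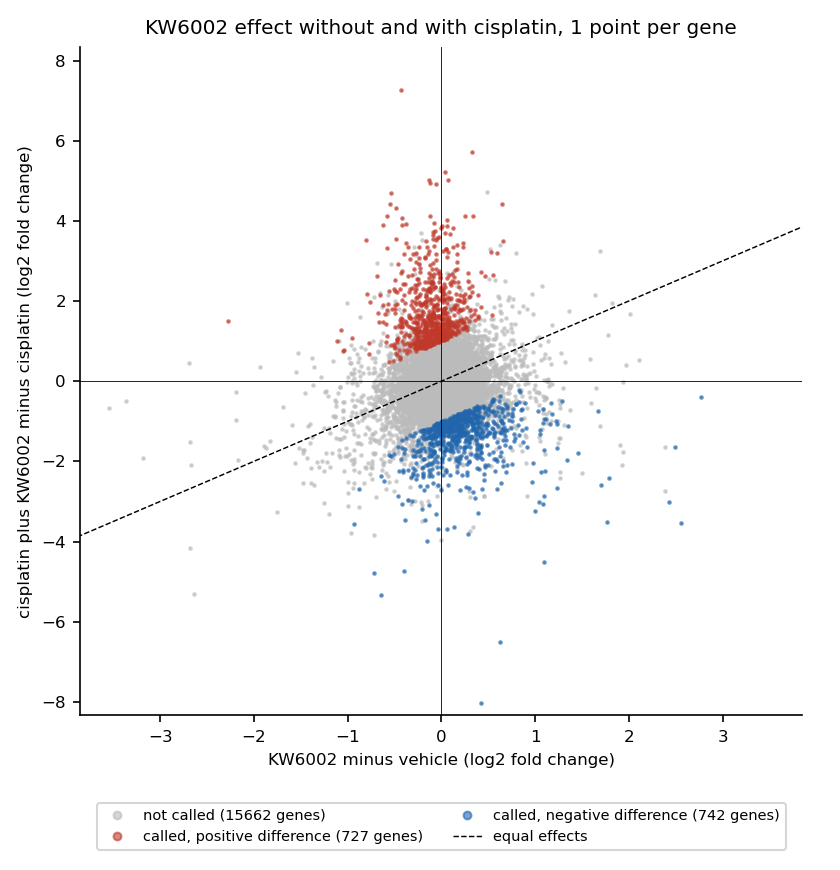
Log2 fold change of KW6002 over vehicle (x axis) and of cisplatin plus KW6002 over cisplatin (y axis), 1 point for each of 17131 genes, with the 727 called positive genes in red and the 742 called negative genes in blue. The dashed line marks equal effects, and the called genes spread along the y axis while most lie within 0.5 of 0 on the x axis.

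In the called positive genes the median interaction difference was 1.55 (quartiles 1.22 and 2.19), made of a median KW6002 effect of 1.45 with cisplatin and -0.10 without it. Cisplatin over vehicle had a median log2 fold change of -2.18 in these genes. In the called negative genes the median difference was -1.43 (quartiles -1.89 and -1.19), with median effects of -1.25 with cisplatin and 0.18 without it, and a median of 1.79 for cisplatin over vehicle. The interaction difference and the cisplatin effect share the cisplatin and vehicle libraries with opposite sign, so part of this opposition follows from how the genes were chosen. Without cisplatin the KW6002 effect lay within 0.5 of 0 for 686 of 727 positive genes (94.4%) and 602 of 742 negative genes (81.1%), beside 94.3% of all genes tested. Protein-coding genes made up 78.8% of the positive and 89.8% of the negative genes, beside 85.8% of all genes tested, and the positive genes held 52 lincRNA genes and 43 antisense genes. The sources do not state if counting took strand into account, so antisense genes and their partners cannot be told apart.

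The position of each mouse across these genes showed how far the groups lay from vehicle. Over the 727 positive genes, the median log2 distance from the vehicle mean was -2.30 to -1.70 in the cisplatin mice and -0.67 to -0.44 in the co-treated mice, and its mean in the KW6002 mice was -0.09 ± 0.037 (SD, n = 6). Over the 742 negative genes, it was 1.65 to 1.93 in the cisplatin mice, 0.42 to 0.72 in the co-treated mice, and 0.17 ± 0.074 (SD, n = 6) in the KW6002 mice. No co-treated mouse lay within the range of the cisplatin mice or of the vehicle mice in either set, a spacing that the choice of these genes itself favours.

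**Figure D2:**
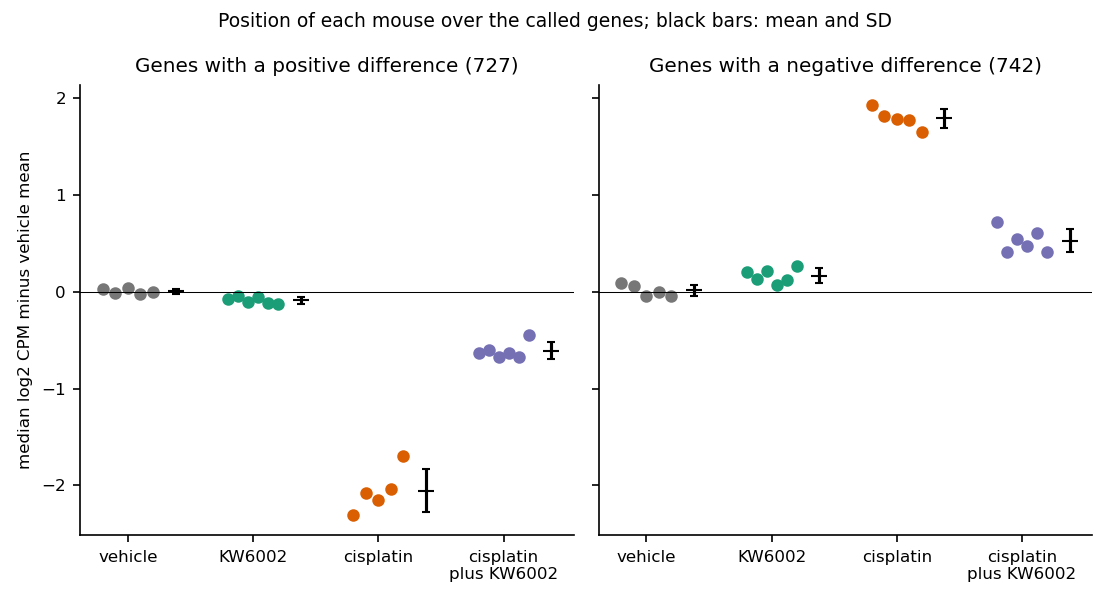
Median log2 CPM minus the vehicle mean over the called genes (y axis), 1 point per mouse, in the 4 groups (x axis), with means and SDs as black bars. The co-treated mice lie at -0.67 to -0.44 over the positive genes and at 0.42 to 0.72 over the negative genes, between the cisplatin mice and the mice without cisplatin.

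In most called genes it was the cisplatin group that stood alone. The genes were chosen from the values of these same libraries, so part of the excess over all genes tested follows from that choice. The 5 cisplatin libraries lay below all 17 others in 565 of the 727 positive genes (77.7%) and above all others in 586 of the 742 negative genes (79.0%), beside 13.0% and 13.2% of all genes tested. The 6 co-treated libraries lay above all 16 others in 52 positive genes (7.15%) and below all others in 36 negative genes (4.85%), beside 2.40% and 1.42% of all genes. The co-treated mean fell between the vehicle and cisplatin means in 567 positive genes (78.0%) and 541 negative genes (72.9%), beside 55.3% of all genes tested. It fell past the vehicle mean, on the side away from cisplatin, in 142 (19.5%) and 183 (24.7%), beside 20.5% of all genes tested.

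Leading genes were taken as the 10 largest differences in each direction among called protein-coding genes that averaged a log2 CPM of 3 or more and had no overlap between cisplatin and co-treated mice. Over all called genes the difference ran from -8.45 to 7.70. Slc34a1, the main sodium-phosphate cotransporter of the proximal tubule brush border (chromosome 13, 55398187 to 55415592), measured 8404, 7554, 7357, 7546, and 7063 CPM in the vehicle mice and 6920 to 7350 CPM (median 7118) in the KW6002 mice. It measured 57.0, 114, 188, 222, and 573 CPM in the cisplatin mice and 2341 to 4518 CPM (median 2750) in the co-treated mice. Vehicle and KW6002 mice overlapped, the cisplatin mice lay far below them, and every co-treated mouse lay between. The interaction difference was 3.82 (standard error 0.49, adjusted p = 2.01e-06), made of 3.73 with cisplatin and -0.09 without it. Slc34a3, a second phosphate cotransporter of the same membrane, went from 0.480 to 3.06 CPM in the cisplatin mice to 13.5 to 35.2 CPM in the co-treated mice, with a difference of 4.30 (standard error 0.36, adjusted p = 7.17e-09).

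Acmsd encodes the enzyme that draws a tryptophan intermediate away from NAD synthesis. It measured 188, 184, 118, 173, and 179 CPM with vehicle and 71.9 to 171 CPM (median 117) with KW6002, against 3.60, 5.22, 3.94, 3.91, and 11.1 CPM with cisplatin and 76.5 to 145 CPM (median 122) with both. The co-treated mice overlapped the KW6002 mice and lay at least at 76.5 CPM where no cisplatin mouse passed 11.1 CPM, and the difference was 4.96 (standard error 0.37, adjusted p = 1.59e-09), made of 4.41 with cisplatin and -0.55 without it. Gm4450 had the largest difference of the 20 leading genes, at 5.18 (standard error 0.29, adjusted p = 3.67e-11), with group means of 26.7, 27.4, 0.193, and 7.28 CPM for vehicle, KW6002, cisplatin, and co-treated mice. Gm4450 lies within Zfp697 on the opposite strand, and reads of the pair cannot be told apart without strand. The other leading positive genes were the cytochrome Cyp2d26 (4.32), the amino acid transporter Slc7a12 (3.98), the lectin-like Clec2h (3.92), the organic ion transporters Slc22a28 (3.87) and Slc22a22 (3.83), and Mep1b (3.86), which encodes a subunit of the brush border protease meprin. Several belong to families of close copies (Cyp2d, Slc22a), among which the counting of unique reads may divide signal unevenly.

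The leading negative genes, chosen by the same rule, follow. Cpe, which encodes the prohormone-processing carboxypeptidase E, measured 50.5, 36.3, 37.1, 43.1, and 35.9 CPM with vehicle, 42.0 to 77.5 CPM (median 46.5) with KW6002, 415, 286, 330, 308, and 271 CPM with cisplatin, and 36.8 to 60.8 CPM (median 45.8) with both. The co-treated mice overlapped both groups without cisplatin, and the cisplatin mice alone were high. Its difference was -3.09 (standard error 0.24, adjusted p = 2.12e-09). Alox5, which encodes the 5-lipoxygenase of leukotriene synthesis, had a difference of -2.98, with 22.8 to 35.3 CPM in the cisplatin mice and 1.60 to 5.64 CPM in the co-treated mice. Further genes were the protease inhibitor Slpi (-4.33), the actin cross-linker Flnc (-3.75), Pi15 (-3.27), Fcgbp (-2.82), the adhesion receptor Adgrg2 (-2.64), and Lcn2 (-2.60). Fcgbp stood at 0.602 to 4.30 CPM with vehicle, 2.91 to 11.3 CPM with KW6002, 37.4 to 69.4 CPM with cisplatin, and 7.15 to 26.9 CPM with both, and the KW6002 mice overlapped the vehicle mice and the co-treated mice.

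**Figure D3:**
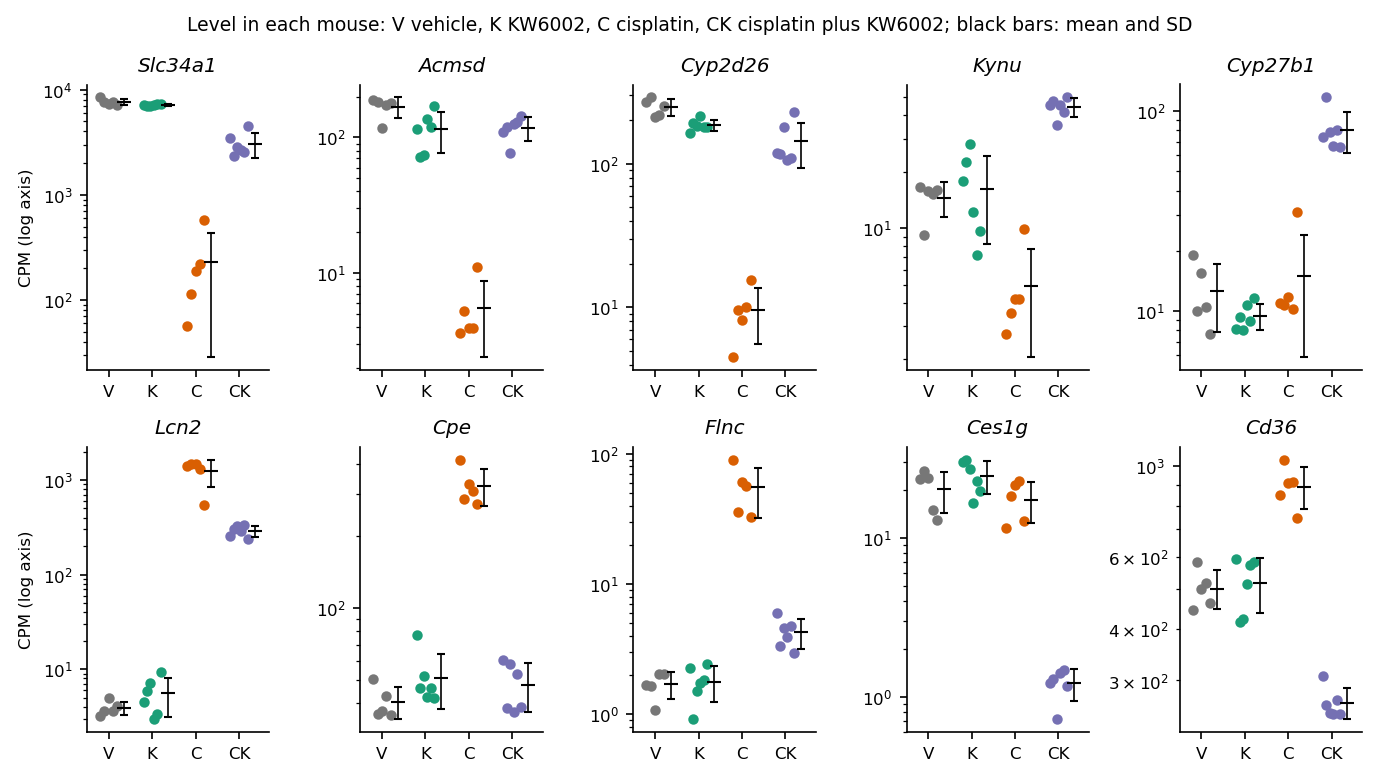
CPM on a log axis in each mouse of the vehicle (V), KW6002 (K), cisplatin (C), and cisplatin plus KW6002 (CK) groups for 10 genes, with group means and SDs as black bars. In Slc34a1, Acmsd, Cyp2d26, Cpe, Lcn2, and Flnc no cisplatin mouse overlaps another group. In Kynu, Cyp27b1, Ces1g, and Cd36, which were chosen for it, no co-treated mouse does.

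A smaller set of genes had a level in co-treated kidneys that no other group reached. Those named here and in the next paragraph were chosen for that separation. Cyp27b1, the renal enzyme that makes active vitamin D, measured 19.1, 9.95, 15.4, 10.4, and 7.62 CPM with vehicle and 8.01 to 11.5 CPM (median 9.10) with KW6002. With cisplatin it measured 10.98, 10.7, 11.7, 10.2, and 31.1 CPM, and with both 66.0 to 117 CPM (median 76.4). The 3 other groups overlapped and all 6 co-treated mice lay above them, with a difference of 2.85 (standard error 0.38, adjusted p = 3.10e-06). Kynu, the kynureninase of tryptophan breakdown, reached 35.5 to 49.7 CPM in the co-treated mice against at most 28.0 CPM elsewhere, with a difference of 3.02 (standard error 0.42, adjusted p = 6.46e-06). Gnmt, a methyltransferase that consumes S-adenosylmethionine, reached 33.7 to 46.8 CPM against at most 29.9 CPM (difference 2.36), and Cfap65, a gene of motile cilia, 11.8 to 16.5 CPM against at most 9.48 CPM (difference 2.17). Ugt1a2 stood at 0.907 to 1.99 CPM with vehicle, 1.17 to 2.11 CPM with KW6002, 6.85 to 32.8 CPM with cisplatin, and 124 to 260 CPM with both, a difference of 3.74, although it shares exons with the other Ugt1a genes and its counts are uncertain for that reason.

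In the opposite direction, Ces1g, which encodes a carboxylesterase of lipid handling, was low in the co-treated mice alone. It measured 23.4, 26.1, 23.6, 14.9, and 12.9 CPM with vehicle, 16.6 to 30.9 CPM (median 24.9) with KW6002, 11.4, 18.4, 21.3, 22.8, and 12.8 CPM with cisplatin, and 0.720 to 1.48 CPM (median 1.25) with both. The first 3 groups overlapped and all 6 co-treated mice lay far below them, and the difference was -4.11 (standard error 0.32, adjusted p = 3.18e-09). Cd36, the fatty acid translocase, measured 446, 584, 501, 519, and 463 CPM with vehicle, 416 to 594 CPM (median 544) with KW6002, 849, 1035, 908, 912, and 747 CPM with cisplatin, and 248 to 308 CPM (median 256) with both. Here the cisplatin mice lay above the groups without cisplatin and the co-treated mice below them, with a difference of -1.80 (standard error 0.14, adjusted p = 3.61e-09). Col27a1, a fibrillar collagen, had a difference of -2.16, Tmie one of -2.53, and Zfp697, which overlaps several genes on the other strand, one of -1.63.

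Transport lists of the proximal tubule were read next. Of 21 amino acid transporter genes tested, 15 were positive and 3 negative at an adjusted p below 0.05, with a median difference of 0.98 beside 0.01 over all genes. Examples were Slc7a7, the basolateral exporter of cationic amino acids (3.15, group means 266, 226, 28.8, and 217 CPM in the order vehicle, KW6002, cisplatin, co-treated), Slc7a13 (2.80), and Cltrn, the collectrin that carries amino acid transporters to the membrane (2.51, means 1489, 1222, 159, and 745 CPM). Of 32 organic ion transporter genes 15 were positive and 5 negative (median 0.36), and with at least 10 counts required in every library the median was 0.04, since that filter drops members nearly absent with cisplatin. Slc22a29 had the largest difference of this list (5.07, means 4.60, 4.23, 0.173, and 5.38 CPM). Slc47a1, the exporter MATE1 that passes cisplatin from the cell into the urine, measured 752 to 797 CPM with vehicle, 684 to 809 CPM with KW6002, 192 to 266 CPM with cisplatin, and 400 to 518 CPM with both. Its groups with cisplatin did not overlap each other or the groups without it, and its difference was 1.17 (standard error 0.11, adjusted p = 2.38e-08).

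Of 22 genes of renal glucose transport and gluconeogenesis, 10 were positive and 4 negative (median 0.31). The positive members included Slc5a2, the glucose cotransporter SGLT2 (2.80, means 764, 643, 60.1, and 352 CPM), the lactate transporter Slc5a12 (2.54), and Glyctk (1.76). Slc5a10, a sodium-dependent sugar transporter, went the other way (-1.93), with means of 166, 167, 430, and 114 CPM. Brush border peptidase and enzyme genes counted 12 positive and 2 negative of 19 (median 0.63), among them Ggt1 (1.53), which cleaves extracellular glutathione, Xpnpep2 (2.00), and Folh1 (1.80). The megalin and cubilin uptake genes counted 9 positive and 1 negative of 15 (median 0.28), with Lrp2, megalin itself, at 1.30 (means 3637, 3788, 575, and 1477 CPM). Among 19 genes of ABC efflux transporters 7 were positive and 5 negative, with a median of 0.00 (-0.08 to 0.05 over the alternative settings), with Abca13 (3.24) and Abcc6 (2.76) on one side and Abcc3 (-1.83) on the other. Abcc2, which exports glutathione conjugates, had a difference of 0.44 (adjusted p = 0.0142), which was 0.48 within the mice numbered in the 500s and did not pass 0.05 there.

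Metabolic lists divided by pathway. Cholesterol synthesis genes were positive in 21 of 25 cases and negative in 1 (median 0.86), with 11 called. Cyp51, a sterol demethylase, had a difference of 1.59 (means 259, 296, 25.9, and 89.1 CPM), and the isoprenoid enzymes Fdps and Idi1 1.90 and 1.53. Tryptophan and NAD synthesis genes counted 11 positive and 1 negative of 18 (median 0.53). Besides Acmsd and Kynu they included Qprt, which makes the NAD precursor nicotinate mononucleotide (2.73, with means of 87.7 CPM with KW6002, 13.1 CPM with cisplatin, and 84.1 CPM with both), and the kynurenine aminotransferase gene Aadat (2.38). Within the mice numbered in the 500s the median of this list was 0.30. Cytochrome P450 genes counted 16 positive and 6 negative of 34 (median 0.64), with 14 called positive and 1 called negative, and Cyp2d12 (3.57), Cyp2j8 (3.22), and Cyp2j13 (2.90) after Cyp2d26.

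Of 74 genes of the nuclear-encoded respiratory chain, 37 were positive, 1 was negative, and 36 passed neither way, with a median of 0.26 and 0 called. Sdha, the flavoprotein of complex II, and Ndufs1, a core subunit of complex I, each had a difference of 0.72, with Sdha at means of 1120, 1059, 445, and 694 CPM. Fatty acid oxidation genes showed no common direction, with 12 positive and 17 negative of 50 (median -0.05, from -0.12 with library size scaling to -0.01 without vehicle replicate 4). Acsm2, an acyl-CoA synthetase of proximal tubule mitochondria, was at 3.63 (means 5516, 5193, 91.7, and 1072 CPM) and the peroxisomal Eci3 at 2.02. Pdk4, which encodes a pyruvate dehydrogenase kinase, was at -2.10 (means 65.8, 63.5, 675, and 153 CPM). NRF2 target and glutathione genes were also mixed, with 12 positive and 14 negative of 39. Their median of -0.08 went to -0.16 with library size scaling or without vehicle replicate 5, and to -0.15 without KW6002 replicate 6. It was -0.12 without co-treated replicate 4, and -0.03 without vehicle replicate 1 or 2 or within the 500s. Slc7a11, the cystine importer, was at -2.91 (means 0.671, 0.780, 8.41, and 1.29 CPM), and Nfe2l2, which encodes NRF2, at -0.54 (adjusted p = 1.57e-05). Hmox1 did not pass the test (-0.08, adjusted p = 0.861, from -0.46 without vehicle replicate 5 to 0.38 within the 500s), and Cat, the catalase gene, was at 0.25 (adjusted p = 0.0115), and at 0.28 within the mice numbered in the 500s, where it did not pass 0.05.

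Injury, matrix, and mitosis lists were mostly negative. Of 32 tubular injury genes, 26 were negative and 0 positive, with a median of -1.02 and 14 called. With Lcn2 they included Havcr1 (-1.90, standard error 0.48, adjusted p = 0.00300) and Timp1, an inhibitor of matrix proteases (-2.03). Extracellular matrix genes counted 41 negative and 3 positive of 60 (median -0.96) with 25 called, led by the collagen cross-linker Lox (-2.20, means 6.33, 5.58, 69.3, and 13.3 CPM), the proteoglycan Vcan (-2.11), tenascin C, encoded by Tnc (-2.06), and the laminin chain Lamb3 (-1.85). Actin and contractile genes counted 24 negative and 0 positive of 39 (median -0.43), with Fblim1 (-1.74), Ankrd1 (-1.55), and Actn1 (-1.44) after Flnc.

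Mitosis genes had the lowest median of all function lists, -1.28, with 57 negative, 0 positive, and 14 passing neither of 71 tested, and 29 called. Their median KW6002 effect was -1.40 with cisplatin and -0.09 without it. Knl1 (-2.36), Cenpf (-2.28), and Prc1 (-2.24), genes of the kinetochore and the mitotic spindle, and Ccnb1 (-2.22), cyclin B1, were those with the largest differences, all at low levels. Prc1 had means of 1.68, 1.52, 5.03, and 0.970 CPM, so that the co-treated mean lay under the vehicle mean. Over the members that reach at least 10 counts in every library the median was -0.92. It was then not the lowest, since the tubular injury median was -0.96 or lower in every setting. DNA replication genes, by contrast, counted 7 negative and 3 positive of 49, with a median of -0.13 (-0.20 with library size scaling), Dtl (-1.91) and Clspn (-1.81) being called.

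Among p53 target genes, the response to DNA damage, 17 of 30 were negative and 1 positive (median -0.44). Btg2, an antiproliferative gene, had a difference of -1.75 (means 23.0, 24.9, 742, and 238 CPM) and the stress cytokine Gdf15 one of -1.38 (means 6.10, 7.21, 313, and 142 CPM). The list as a whole stayed far above vehicle in both groups with cisplatin, at median log2 fold changes of 2.57 for cisplatin and 2.21 for co-treated mice over vehicle. Bax, the proapoptotic target of p53, was the opposite of most members, at 0.24 (adjusted p = 0.0388) with means of 26.6, 26.2, 79.3, and 92.4 CPM, and Bcl2 did not pass the test (-0.07, adjusted p = 0.597). The Bax difference did not pass with DESeq2, voom, other scalings, no filter (0.26), the replicate number as a block (0.24), or the 500s alone. It was also lost without vehicle replicate 1, 3, or 4, KW6002 replicate 1, 4, or 5, cisplatin replicate 1 or 5, or co-treated replicate 2, 4, or 5 (0.20 to 0.24). Cell death genes counted 21 negative and 7 positive of 49 (median -0.23), with the necroptosis effector Mlkl at -1.26 and the receptor Tnfrsf1b at -1.73. Immediate early and AP-1 genes counted 17 negative and 0 positive of 29 (median -0.60), among them Klf5 (-1.85) and Dusp5 (-1.67), which encodes a phosphatase of ERK.

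Immune lists went in different directions. MHC class II and interferon gamma response genes counted 17 positive and 0 negative of 31, with a median of 0.65 and 13 called, while type I interferon response genes counted 19 negative and 2 positive of 36, with a median of -0.45. Ciita, the master activator of MHC class II, had a difference of 3.12 (standard error 0.39, adjusted p = 1.57e-06; means 6.40, 7.53, 0.941, and 9.52 CPM). Igtp, a GTPase induced by interferon gamma, had one of 1.57 with means of 15.8, 18.3, 13.5, and 46.1 CPM, and overlaps Irgm2 on the same strand, so its counts are uncertain. On the type I side Isg20 was at -1.94, Oas2 at -1.76, and Ifit3 at -0.98. Within the mice numbered in the 500s the medians were 0.34 for the MHC class II list and -0.79 for the type I list. Complement genes counted 8 negative and 2 positive of 22 (median -0.50, -0.21 without KW6002 replicate 1, and -0.75 within the 500s), with the factor B gene Cfb at 2.57 and Masp2, which overlaps Tardbp on the other strand, at -2.82. Cytokine and chemokine genes counted 8 negative and 3 positive of 33. Their median of -0.11 depended on single libraries, from -0.33 without vehicle replicate 1 to -0.05 without KW6002 replicate 6. Tnf was at 1.45 (adjusted p = 0.0448) with means of 0.181 to 0.445 CPM. It did not pass with voom, with library size scaling, without a filter, with the replicate number as a block (1.44), or within the 500s (0.23). The Tnf difference also failed to pass 0.05 without each single library other than vehicle replicates 4 and 5, KW6002 replicates 4, 5, and 6, and co-treated replicates 2 and 3, at 1.23 to 1.51. Il6 had at most 0.0648 CPM in any mouse without cisplatin, which is within 3 counts, so no difference of effects is given for it.

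In the pathway KW6002 acts on, Adora2a itself had a difference of -0.84 (standard error 0.19, adjusted p = 0.00109). It measured 3.85, 2.61, 3.80, 5.04, and 3.48 CPM with vehicle, 3.44 to 4.99 CPM (median 4.14) with KW6002, 8.36, 7.08, 6.37, 6.66, and 5.55 CPM with cisplatin, and 3.74 to 4.78 CPM (median 4.16) with both. The cisplatin mice were above all others and the 3 other groups overlapped, although within the mice numbered in the 500s the difference was -0.49 and did not pass 0.05 (adjusted p = 0.0860). Of 18 adenosine receptor, enzyme, and transporter genes 6 were positive and 7 negative (median -0.24). Adora2b, the low-affinity receptor, was at -2.08 (means 1.64, 2.29, 9.24, and 3.05 CPM), Adora1 at -0.92, the ATP-degrading ectoenzyme gene Entpd2 at -1.02, and the nucleoside transporter gene Slc29a3 at 1.05.

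Lists of housekeeping machinery had medians near 0, and in each of them the share passing was below the background in at least 1 direction. Unfolded protein and integrated stress response genes counted 3 positive and 4 negative of 33 (median 0.04, from -0.03 when scaled by library size alone to 0.08 within the 500s), proteasome subunit genes 9 and 2 of 32 (median 0.04, from -0.03 to 0.10 in the same settings), and cytosolic ribosomal protein genes 4 and 13 of 65 (median -0.08, and -0.15 with library size scaling). Ppia, a reference gene for PCR, had a difference of 0.64 (adjusted p = 0.000827, means 15.3, 14.8, 11.9, and 17.9 CPM), and since many processed copies of it exist in the genome, unique reads may miss part of its signal. Of other genes the study names for kidney, the transcription factor gene Lhx1 was positive (0.63, adjusted p = 0.000798).

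**Figure D4:**
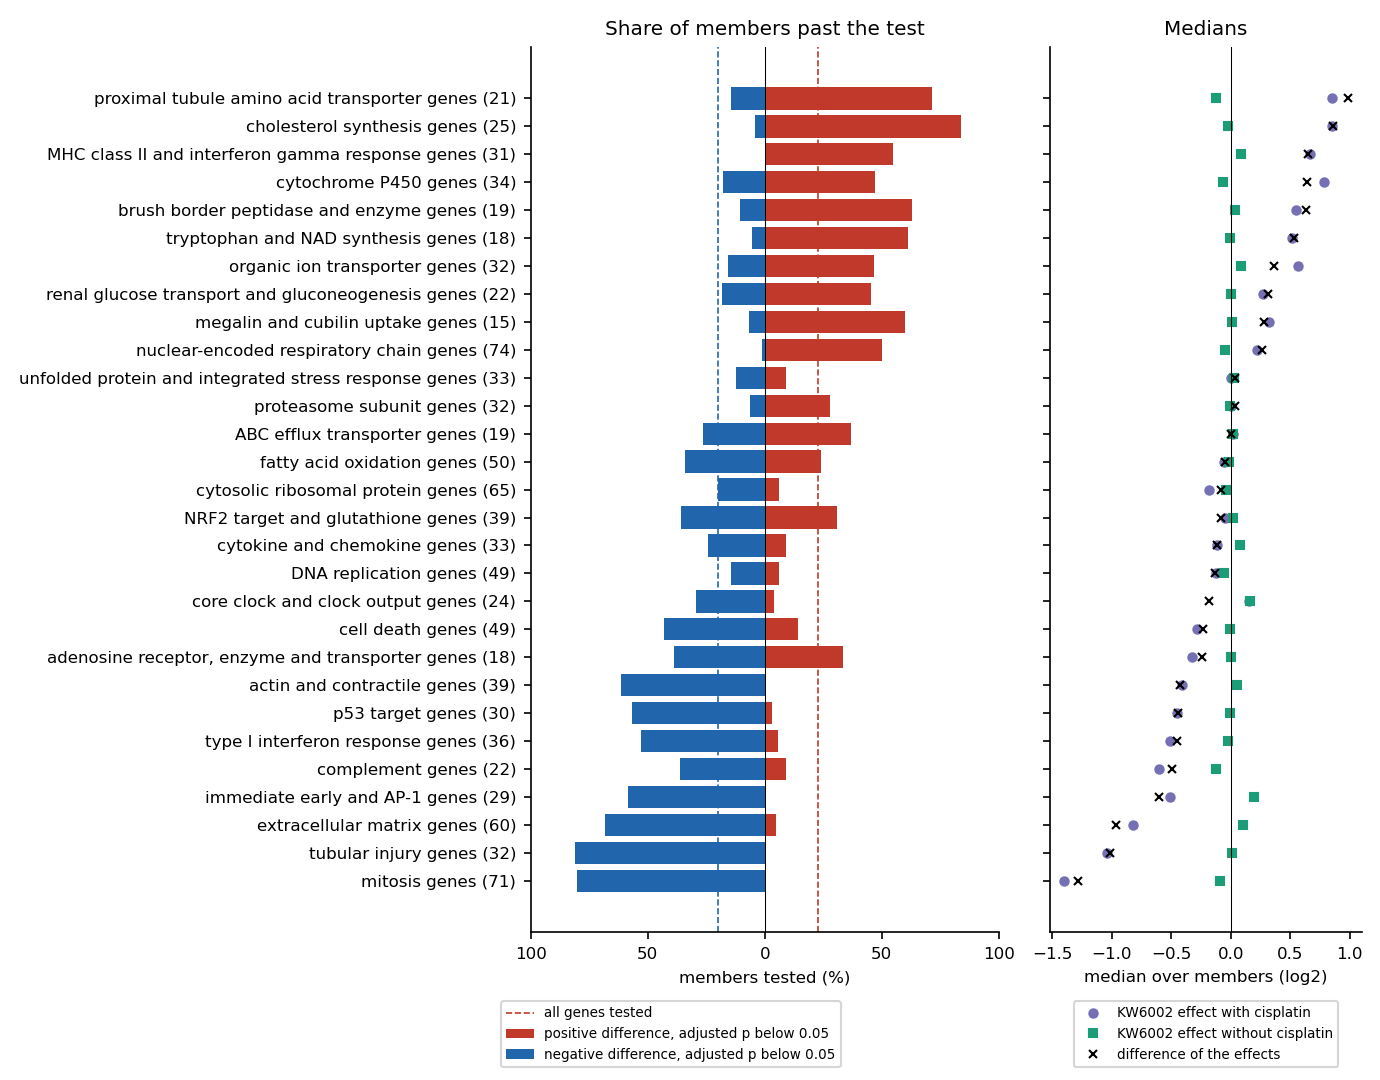
Left, percent of the tested members of each function list (number tested in parentheses) with a positive (red, to the right) or negative (blue, to the left) interaction difference at adjusted p below 0.05, with dashed lines at 22.8% and 19.9% for all genes tested. Right, median log2 value over members for the KW6002 effect with cisplatin, without cisplatin, and the difference, which runs from -1.28 (mitosis) to 0.98 (amino acid transport).

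Core clock and clock output genes had about equal median KW6002 effects in both settings, 0.15 with cisplatin and 0.16 without it. For the difference 7 of 24 were negative and 1 positive (median -0.18, -0.06 without KW6002 replicate 4, -0.11 without KW6002 replicate 5, -0.08 with voom, and -0.07 with the label series as a covariate). Per2, a core repressor of the clock, was 1 of the 3 genes at an adjusted p below 0.05 for KW6002 against vehicle. It measured 60.7, 42.8, 75.8, 50.1, and 49.6 CPM with vehicle and 78.3 to 93.4 CPM (median 87.2) with KW6002, without overlap, and rose by 0.63 on the log2 scale (adjusted p = 0.0159 by edgeR). That rise did not pass 0.05 without vehicle replicate 4 (0.59), KW6002 replicate 2 (0.61), or KW6002 replicate 5 (0.61). With the replicate number as a block it did not pass either (0.65). Next to cisplatin the KW6002 effect on Per2 was 0.17, and the interaction difference was -0.46 (adjusted p = 0.00989). Tsku, which encodes a secreted leucine-rich protein, had 30.9 to 38.2 CPM with vehicle and 41.2 to 61.2 CPM with KW6002, a rise of 0.64 (adjusted p = 0.000675) against 0.23 with cisplatin, and a difference of -0.41 (adjusted p = 0.00429). Psmd5, a proteasome assembly chaperone, was at 0.21 (adjusted p = 0.0464) in mice without cisplatin. It did not pass with library size scaling, no filter, the replicate number as a block (0.21), or the 500s alone (0.20). Nor did it pass when any 1 library was left out, other than vehicle replicate 3, KW6002 replicates 1 and 4, cisplatin replicate 5, and co-treated replicate 1 (0.19 to 0.22). Its interaction difference did not pass (-0.10, adjusted p = 0.141), except with library size scaling (-0.17, adjusted p = 0.0232). Per1 was at -0.81 (adjusted p = 0.0170), with means of 53.3, 96.9, 186, and 192 CPM, and Hlf, a clock output factor, was at 1.33.

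In 7 of the called positive and 33 of the called negative genes the KW6002 effect was larger in size without cisplatin than with it. It was larger with cisplatin in 720 of 727 positive and 709 of 742 negative genes, beside 13620 of all 17131. The choice of genes by the interaction favours this. Of the 40 genes with the larger effect without cisplatin, 0 passed an adjusted p of 0.05 for KW6002 against vehicle in edgeR. The 10 protein-coding genes among them whose log2 CPM averaged 3 or more were picked out after their values were seen. Of these 10, Akr1b3, Frem1, and Tsc22d3 passed 0.05 for KW6002 against vehicle with DESeq2, and Cfap43, Gem, and Tsc22d3 with the label series as a covariate. In edgeR Tsc22d3 passed without vehicle replicate 3 (0.92), KW6002 replicate 1 (0.89), or co-treated replicate 1 (0.82), and Akr1b3 without vehicle replicate 3 (1.39). Tsc22d3, a glucocorticoid-induced gene, measured 46.6, 34.0, 67.7, 65.9, and 58.4 CPM with vehicle, 73.0 to 122 CPM (median 98.5) with KW6002, 120 to 145 CPM with cisplatin, and 76.3 to 131 CPM with both. KW6002 and vehicle mice did not overlap, and the effects were 0.83 without cisplatin and -0.53 with it, a difference of -1.35 (adjusted p = 4.39e-05). Akr1b3, the aldose reductase that makes sorbitol in the renal medulla, measured 8.27 to 13.4 CPM with vehicle and 12.8 to 53.6 CPM with KW6002, with effects of 1.29 without cisplatin and -0.49 with it (difference -1.78, adjusted p = 0.000899). Gem, a small GTPase, had effects of 1.22 and -0.99 (difference -2.21), and Psca 1.23 and -1.08 (difference -2.31). Within the mice numbered in the 500s the effect of KW6002 on Psca without cisplatin was 0.57. Muc20 (-1.57, with 0.86 without cisplatin, and -1.02 and 0.32 within the 500s), Frem1 (-1.10, and -0.79 within the 500s, where it did not pass and the effect without cisplatin was 0.53 in place of 0.84), Cfap43 (-1.05), and the arrestin-like gene Arrdc2 completed the negative genes.

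The positive genes of this kind were Fasn and Acaca, the enzymes of fatty acid synthesis. Fasn measured 816, 1291, 443, 794, and 359 CPM with vehicle, 114 to 548 CPM (median 387) with KW6002, a mean of 109 CPM with cisplatin, and 104 to 444 CPM (median 167) with both. The vehicle and KW6002 mice overlapped, and the effects were -1.11 without cisplatin and 0.99 with it, a difference of 2.10 (standard error 0.54, adjusted p = 0.00347). Acaca had effects of -1.05 and 0.76 and a difference of 1.81 (adjusted p = 0.000879). Within the mice numbered in the 500s the effect without cisplatin was -0.39 for each of these genes, and the differences were 1.38 for Fasn and 1.15 for Acaca. The summed level of the 14 fat marker genes was 2755, 4355, 1837, 1840, and 1354 CPM in the vehicle mice, 1063 to 3288 CPM in the KW6002 mice, 1183 to 1919 CPM in the cisplatin mice, and 546 to 1333 CPM in the co-treated mice. Lpl was the most abundant of these genes, with 48.0% of the sum, and all 14 were detected in every group. Of the 14, the lipase gene Pnpla2 was negative for the difference (-0.75, and -1.23 within the 500s) and Thrsp, a regulator of fat synthesis, positive (2.11, adjusted p = 0.0225). Thrsp had effects of 1.01 with cisplatin and -1.10 without it, of the same signs as those of Fasn and Acaca, and its means were 60.4, 28.3, 5.72, and 11.5 CPM. Its difference did not pass with voom (1.97), within the 500s (1.13), without vehicle replicate 2 (1.70), or without co-treated replicate 1 (1.58). List medians were -0.61 for the difference, -1.55 for KW6002 with cisplatin, and -0.98 without it, and the first was -2.05 within the 500s, -1.18 without vehicle replicate 2, -1.01 without co-treated replicate 1, and -0.36 over members with at least 10 counts in every library. The part of adherent fat in these results was not tested.

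Cell type markers were read in the same way, and in bulk tissue fewer cells of a type and less RNA per cell cannot be told apart. Markers of the proximal tubule and of the distal nephron were mostly positive. For the S1 and S2 segments 11 of 16 markers were positive and 1 negative (median 0.88), with Miox (3.82, means 2000, 1906, 52.0, and 700 CPM) and Gatm (2.74, means 885, 652, 34.2, and 169 CPM) beside Slc34a1 and Slc5a2. Their summed level was 32414 ± 1582 CPM (SD, n = 5) with vehicle, 31297 ± 991 (SD, n = 6) with KW6002, 15475 ± 2534 (SD, n = 5) with cisplatin, and 18428 ± 2834 (SD, n = 6) with both, the last 2 groups overlapping. For the S3 segment 7 of 13 markers were positive and 0 negative (median 0.62, and 1.06 within the 500s), with Slc7a13 at means of 864, 970, 6.37, and 49.9 CPM and Slco1a6 at 2.68.

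In the thick ascending limb 10 of 14 markers were positive and 0 negative, with the highest median of the nephron segments (1.07), and 8 were called. Egf, made by this segment and released into urine, had means of 2538, 2546, 75.9, and 313 CPM and a difference of 2.04 (standard error 0.33, adjusted p = 3.82e-05), Wfdc15b was at 1.48, and Ppp1r1b at 1.41. The summed level was 2474 to 2886 CPM with cisplatin and 3165 to 5609 CPM with both, without overlap. Umod, the most abundant of these markers with 48.1% of the sum, had means of 4534, 5596, 1575, and 1820 CPM. Its level thus differed little between the cisplatin and co-treated groups. In the distal convoluted and connecting tubule 9 of 13 were positive and 0 negative (median 0.97), with the thiazide-sensitive cotransporter Slc12a3 at 1.95 (means 1597, 1525, 66.1, and 244 CPM) and the calcium-binding Calb1 at 1.85. Intercalated cell markers were positive in 11 of 14 cases and negative in 0 (median 0.63), with the anion exchangers Slc4a1 (2.17) and Slc26a4 (1.23) and the transcription factor Hmx2 (1.65). Their sum was 449 ± 53.6 CPM (SD, n = 5) with cisplatin and 677 ± 48.4 CPM (SD, n = 6) with both, without overlap.

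Principal cells of the collecting duct did not share this direction. Of 13 markers 2 were positive, 5 negative, and 0 called (median -0.24), with St6gal1 at -0.80 and the sodium channel subunit Scnn1g at 0.70. Thin limb markers counted 1 positive and 3 negative of 9 (median -0.86, -0.49 within the 500s, and -0.48 over members with at least 10 counts in every library). That median had parts of -0.40 with cisplatin and 0.43 without it. Aqp1, which the proximal tubule also expresses, was at 0.76 (means 1353, 1536, 753, and 1451 CPM) and Bst1 at -2.02. Podocyte markers counted 5 positive and 1 negative of 12 (median 0.26, and 0.15 within the 500s), with Clic3 at 1.55 and Synpo at -0.66.

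Vehicle replicates 1 and 2 stood apart from the other vehicle mice in thin limb markers and in most other cell type lists. Their thin limb sums were 1305 and 1232 CPM, against 1637 to 1900 CPM in vehicle replicates 3 to 5. Aqp1, which the proximal tubule also expresses, held 78.5% of the thin limb sum over the 22 libraries. The same mice were lowest of their group for Bst1 (3.34 and 6.94 CPM against 14.6 to 17.3 CPM). Thick ascending limb sums were 7332 and 7961 CPM against 10729 to 11447 CPM, and S3 segment sums 6764 and 7181 CPM against 9139 to 9629 CPM. Principal cell sums were 1270 and 1300 CPM against 1502 to 1603 CPM. Macrophage sums, of which Apoe held 54.7%, were higher, at 1118 and 1136 CPM against 572 to 694 CPM. Neutrophil sums were also higher, at 21.0 and 18.8 CPM against 5.68 to 8.88 CPM. The intercalated and the T and NK cell sums overlapped. The cause was not tested. Without both mice, a setting chosen after seeing the data, 1609 genes were called, 718 positive and 891 negative. List medians that moved by over 1.5 times were then -0.45 for thin limb, -0.14 for principal cell, 1.04 for S3 segment, 0.11 for podocyte, -0.17 for endothelial, -1.11 for macrophage, 0.15 for T and NK cell, 0.62 for B and plasma cell, -1.05 for neutrophil, -1.89 for fat, and 0.50 for red blood cell markers. Among function lists they were -0.43 for cytokine, -1.04 for complement, 0.02 for NRF2 target, and -0.12 for ribosomal protein genes. The interaction calls of Ankrd1 (-1.14), Per1 (-0.61), Thrsp (1.43), Tnf (0.96), and Bax (0.22) were lost, and Per2 (0.56) and Psmd5 (0.19) did not pass for KW6002 against vehicle. In that comparison Gem was at 0.73, Psca at 0.83, Muc20 at 0.36, Cfap43 at 0.34, Fasn at -0.63, and Acaca at -0.59.

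Outside the tubule, fibroblast and pericyte markers counted 7 negative and 1 positive of 16 (median -0.69). The collagen genes Col1a1 (-1.64, means 96.2 CPM with cisplatin and 37.6 CPM with both) and Col1a2 (-1.27), and the receptor gene Pdgfra (-1.12) were among those called. The summed level of the list was 2025 to 2657 CPM with cisplatin and 1086 to 1664 CPM with both, without overlap. Endothelial markers counted 7 negative and 0 positive of 15 (median -0.28, and -0.08 within the 500s), with Eng at -1.01 and Flt1 at -0.71. Macrophage and monocyte markers counted 2 negative and 0 positive of 18, with Cd14, which injured tubule cells can also express, at -1.74. Their median was -0.43, but -0.07 without KW6002 replicate 1, -0.23 without cisplatin replicate 5, -0.67 without vehicle replicate 2, and -0.78 within the 500s. Lymphocyte and neutrophil markers stood at summed levels of at most 58.0 CPM in any library. T and NK cell markers counted 2 positive and 3 negative of 13 tested (median 0.68, or 0.37 with members near 0 held at 3 counts per library), and their median was -1.18 over members with at least 10 counts in every library. It was 0.19 within the 500s, 0.23 without vehicle replicate 1, and 0.37 to 0.45 without cisplatin replicate 1 or 2 or co-treated replicate 1 or 3. B and plasma cell markers counted 2 positive and 1 negative of 10 (median 0.96, and 0.55 within the 500s). Neutrophil markers counted 0 and 1 of 8 (median -0.56, -0.37 without vehicle replicate 3, -0.34 without cisplatin replicate 3, and -0.06 at 10 or more counts).

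**Figure D5:**
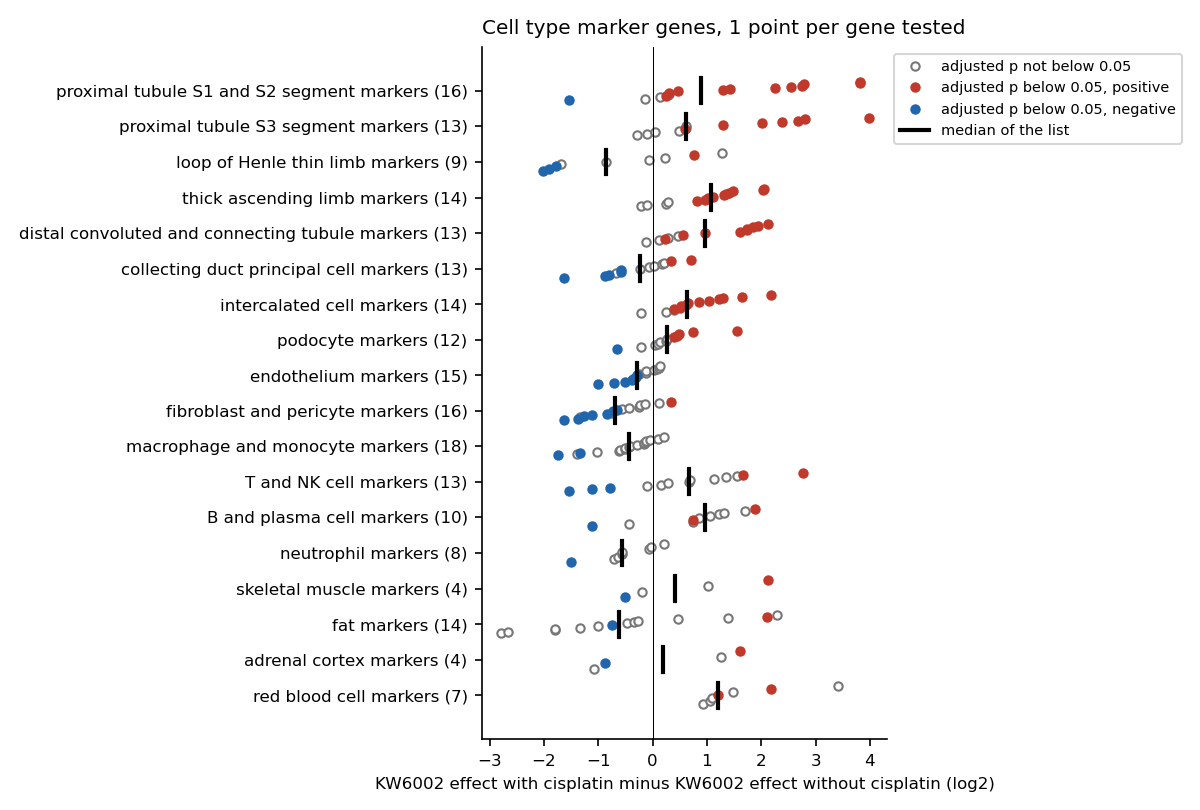
Interaction difference on the log2 scale (x axis) of each tested marker gene of 18 cell types (y axis, number tested in parentheses), filled where the adjusted p was below 0.05, with a black bar at the median of each list. Thick ascending limb markers have the median of 1.07 and principal cell markers one of -0.24.

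Markers of tissue that may adhere to a kidney or fill its vessels were also read. Adrenal cortex markers counted 1 positive and 1 negative of 4 tested (median 0.18, -0.66 without co-treated replicate 6, -0.29 with voom, 0.28 to 0.35 without vehicle replicate 5, KW6002 replicate 1, or co-treated replicate 1, 2, or 5, and 1.24 over members with at least 10 counts in every library), and their sum was 30.6 to 38.2 CPM in 5 co-treated mice and 132 CPM in co-treated replicate 6, with Scarb1, which the kidney also expresses, holding 77.4% of the sum over the 22 libraries. Cyp11b2, which marks the adrenal cortex more narrowly, had at most 3 counts in every library. Red blood cell markers counted 2 positive and 0 negative of 7 tested, and their sum was 139 to 462 CPM with vehicle, 129 to 422 CPM with KW6002, 5.19 to 17.1 CPM with cisplatin, and 25.9 to 45.7 CPM with both. Hbb-bs, their most abundant gene, had means of 116 CPM with vehicle, 0.0795 CPM with cisplatin, and 0.154 CPM with both, and Slc4a1 is shared with intercalated cells. With members near 0 in cisplatin kidneys held at a floor of 3 counts per library, the median of the list was 1.09 in place of 1.21. Skeletal muscle markers counted 1 positive and 1 negative of 4 tested (median 0.41, 0.78 within the 500s, and -0.37 over members with at least 10 counts in every library), the positive one being Pvalb (2.12), a gene also of the distal convoluted tubule. The part of these tissues in the interaction was not tested, and without co-treated replicate 6 and cisplatin replicate 5 together, a setting chosen after seeing the data, 1509 genes were called and the red blood cell median was 1.87.

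Since called genes moved together, their promoters were searched for short motifs of factors known in kidney, cell cycle, and injury. RefSeq promoters on GRCm38.p6, taken as the 250 bases before each start site, were matched for 503 of the 727 positive and 550 of the 742 negative genes, and both strands were read. GTTAAT was in 14.3% of the promoters of positive genes (90 of 629) and 3.89% of those of negative genes (27 of 694), beside 4.81% for all genes tested and 6.43% of all 32851 promoters. CAAAGTCCA, letters bound by HNF4A, was in 1.59%, 0.43%, 0.38%, and 0.38% in the same order. TGANTCA, the AP-1 site, which reads the same on both strands, was in 6.52%, 8.50%, 4.97%, and 6.75%, and GGAATG, letters bound by TEAD factors, in 14.3%, 15.3%, 11.2%, and 12.6%. A match is a run of letters and does not show that a factor is bound there.

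Promoters of 2 leading positive genes with the motif are shown, with GTTAAT or its reverse complement ATTAAC in capitals. Slc34a1 is shown from chr13:55399398-55399647 on the plus strand and Gm4450 from chr3:98457127-98457376 on the minus strand, each ending at the base before the RefSeq start site. That site of Slc34a1 lies inside the gene as annotated above.
Slc34a1: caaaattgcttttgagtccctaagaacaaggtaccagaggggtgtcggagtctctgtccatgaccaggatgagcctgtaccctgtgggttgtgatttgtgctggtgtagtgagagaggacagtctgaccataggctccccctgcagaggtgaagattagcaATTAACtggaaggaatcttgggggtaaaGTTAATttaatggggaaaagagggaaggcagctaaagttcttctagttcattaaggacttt
Gm4450: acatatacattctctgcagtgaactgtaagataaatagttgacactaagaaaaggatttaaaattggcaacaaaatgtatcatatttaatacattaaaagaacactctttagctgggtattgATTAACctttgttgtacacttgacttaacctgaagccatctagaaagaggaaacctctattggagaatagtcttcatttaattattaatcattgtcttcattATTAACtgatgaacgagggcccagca
The motifs of Slc34a1 end 83 and 55 bases before the start site, and those of Gm4450 end 122 and 20 bases before it.

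For the mitosis list, 65 promoters of 58 genes were found, of which 72.3% held CCAAT, the letters bound by NF-Y, and 38.5% held TTTGAA, the cell cycle homology element, beside 34.5% of promoters of all genes tested for CCAAT and 11.03% for TTTGAA. TTTCGCGC, letters of E2F sites, was in 1 of the 65. Over all called negative genes the shares were 31.1% for CCAAT and 13.4% for TTTGAA, and over the called positive genes 35.9% and 14.6%. Top2a and Mki67, which encode a mitotic topoisomerase and a marker of cycling cells, had differences of -1.96 and -1.74. Their promoters (chr11:99024190-99024439 and chr7:135716380-135716629, both on the minus strand) are shown with both motifs and their reverse complements in capitals.
Top2a: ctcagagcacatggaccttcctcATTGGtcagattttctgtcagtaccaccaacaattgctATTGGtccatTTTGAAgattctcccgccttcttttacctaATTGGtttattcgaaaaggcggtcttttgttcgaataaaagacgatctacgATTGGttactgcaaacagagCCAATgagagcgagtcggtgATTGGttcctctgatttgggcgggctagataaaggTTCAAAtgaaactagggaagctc
Mki67: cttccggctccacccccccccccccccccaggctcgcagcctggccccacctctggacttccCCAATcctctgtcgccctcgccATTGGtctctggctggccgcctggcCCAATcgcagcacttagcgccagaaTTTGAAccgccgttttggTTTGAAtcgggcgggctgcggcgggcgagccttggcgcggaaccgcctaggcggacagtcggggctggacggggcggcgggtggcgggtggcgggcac
Cholesterol synthesis genes held CCAAT in 16 of 20 promoters (80.0%) and TCACNCCAC, letters of sterol regulatory elements, in 1 of 20, beside 1.05% of all promoters. Of the S1 and S2 segment markers, 5 of 14 promoters held GTTAAT (35.7%).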

How the data were processed

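Kidney RNA of 22 mice was sequenced by the authors from stranded poly(A) libraries as single reads of 50 bases. They aligned reads to mm10 with STAR 2.5.3a, kept unique alignments, and counted them per gene with HTSeq-count 0.6.1p1. The authors deposited these counts without normalization, as whole reads per Ensembl gene and library, and 66 unnamed empty columns of the table were not used. Of 32858 genes, filterByExpr kept 17131 (10 counts at the median library size in at least 5 libraries, and 15 in all), which held 99.9% of counts. The test was the quasi-likelihood F test of edgeR 4.0.16 (R 4.3.3) after TMM scaling, with 1 mean per group (biological coefficient of variation 0.129). The steps were tested on simulated data. Groups whose libraries all held 3 or fewer reads of a gene were read as near 0.

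Genes named are the 10 with the largest difference in each direction among called protein-coding genes whose log2 CPM averaged 3 or more and whose cisplatin and co-treated libraries did not overlap, up to 4 members with the largest difference per list at an adjusted p below 0.05, genes the study names for kidney, genes that passed for KW6002 against vehicle, and the 5 largest in each direction with all co-treated libraries apart. Some genes these rules select are not reported here. The genes with a larger effect without cisplatin were chosen after their values were seen. Promoters shown are those of called genes with the motif and the largest differences, 2 per set, whose window touches no annotated exon. The members and lists were chosen with earlier results of these data known. Alternatives were DESeq2 1.42.0, voom from limma 3.58.1, other scalings and filters, a replicate block, the label number series, a test against a difference of 1, an adjusted p below 0.05 in place of 0.01, and fits without each library.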

Additional observations from a re-analysis of the deposited data

Results flagged for a closer look

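The KW6002 effect differed between kidneys with and without cisplatin in 1469 genes, by the test of the interaction itself. Single libraries that lay far from the rest of their group were looked for in 242 groups of values on the log2 scale, and 20 were found; chance alone gives about 1 in 20 groups. Their causes were not tested.

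Cisplatin replicate 5 stood apart most often. It was lowest in its group for Lcn2 (540 CPM against a group median of 1391 CPM) and for the summed adrenal markers (45.7 CPM), and highest for Cyp27b1 (31.1 CPM), Slc47a1 (266 CPM), and the summed macrophage markers (1183 CPM against a median of 769 CPM). Cisplatin replicate 2 was highest for Fcgbp (69.4 CPM). Among co-treated mice, replicate 6 was highest for the adrenal markers (132 CPM against a median of 33.7 CPM) and Slc7a12 (51.3 CPM) and lowest for Hmox1 (71.7 CPM). Co-treated replicate 1 was lowest for the principal cell markers (1338 CPM) and Gnmt (33.7 CPM). Co-treated replicate 2 was highest for Cyp27b1 (117 CPM) and lowest for Tnf (0.0941 CPM), and co-treated replicate 3 was lowest for Ces1g (0.720 CPM).

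Among mice without cisplatin, vehicle replicate 3 was lowest for Acmsd (118 CPM) and the intercalated cell markers (879 CPM). Vehicle replicate 1 was lowest for Ugt1a2 (0.907 CPM), vehicle replicate 2 lowest for Kynu (9.22 CPM), vehicle replicate 5 highest for Nfe2l2 (134 CPM), and KW6002 replicate 1 highest for Cpe (77.5 CPM).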

How the results depend on the processing

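The interaction count of 1469 stayed within 1.5 times under DESeq2 (1613), voom (1476), relative log expression factors (1480), library size scaling (1523, of which 641 were positive and 882 negative), at least 10 counts in every library (1121), no filter (1422), the label series as a covariate (1515), the mice numbered in the 500s alone (1296), and an adjusted p below 0.05 (1852). With each library left out in turn it ran from 1308 to 1592, the positive count from 653 to 808, the negative count from 655 to 821, the count for KW6002 with cisplatin from 1597 to 1890, and that without cisplatin from 0 to 2. Of the 1469 genes, 1280 to 1407 were called again in these fits, and 1042 within the 500s. Tested against a difference of 1, the interaction count was 261 (192 positive and 69 negative) and that for KW6002 with cisplatin 481, a stricter test by construction. With at least 10 counts in every library the count for KW6002 with cisplatin was 1043 in place of 1766, over 14159 genes tested in place of 17131. For KW6002 without cisplatin DESeq2 called 4 genes (Akr1b3, Cry1, Mchr1, Sgk1), the label series covariate 4 (Cry1, Gem, Mchr1, Nr1d1), and the 500s alone 1 (Per1); the cause was not tested.

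With the replicate number as a block, 1460 genes were called for the interaction. The numbers were not taken to pair the mice, since deviations of the 31 same-numbered pairs had a median correlation of 0.0085, from -0.175 to 0.405, and 7 passed 0.1, beside 12 of 150 pairs of unlike number. Between vehicle and KW6002 mice 4 of 5 same-numbered pairs passed 0.1 (0.405, 0.132, 0.155, and 0.194), and 8 of 22 mice correlated best with a mouse of their own number.

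Of 204 named genes that passed as reported, 171 passed in every other setting that tested them, apart from the test against 1. In that test 122 did not pass, and 0 changed sign while passing in any setting. A gene that a filter removed in a setting was not counted as lost there. The calls of Tnf, Cr2, Ccl4, Bax, Aqp4, Nr4a1, Itgam, Cd4, Cxcr2, and Ighm were lost in 10 or more settings. Within the 500s 24 named genes no longer passed. List medians moved by more than the spread between replicates in 59 cases and by less in 1586, the first including mitosis (-0.92 with at least 10 counts) and fat (-2.05 within the 500s). Depth limits genes near 0.306 CPM, the level of 10 counts in the median library.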
